A study of Mus musculus with 17 samples.

Results

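A set of 36 genes that carry cells through DNA replication and mitosis was followed in mouse brain after a 6-hydroxydopamine (6-OHDA) lesion, with and without NDST3. The genes were listed by symbol for their known function, and the rule used no measured value, but earlier results of these data were known when they were chosen. All 36 were found among the 20328 genes of the RNA-seq table and among the 26650 rows of the scRNA-seq table. In the chromatin tables, 7 of them had at least 1 region of H3K27 acetylation (11 of 11424 regions), and 4 had an ATAC-seq region (4 of 3582).

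Most cells of the adult brain have left the cell cycle, so transcripts of this kind are low there, and dividing cells are mainly glia and their precursors, immune cells and vascular cells. A cell that divides first loads the MCM helicase on its replication origins and copies its DNA with the sliding clamp PCNA. It then enters mitosis through CDK1 and its cyclins, separates the chromosomes on the spindle, and ends mitosis when the anaphase-promoting complex marks cyclins for destruction. Many of these genes are transcribed only in the phase in which their protein is used. The replication genes are classical targets of E2F factors, and many mitotic genes carry a CHR element and CCAAT boxes.

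The study asked how NDST3, a heparan sulfate N-deacetylase and N-sulfotransferase, changes the 6-OHDA-induced PD model. The mice were wild type females of the ICR strain, 8 weeks old at the lesion, and all libraries are labelled brain. 6-OHDA, a toxin taken up by catecholamine neurons, was injected on 1 side at 10 µg/µl. For 6-OHDA+NDST3, 2 µl of AAV9 with human NDST3 was injected into the substantia nigra 5 days later. The virus used the CMV promoter, which is not restricted to 1 cell type. Lesioned mice without NDST3 received saline, per the study's methods, and sham mice had neither agent. No library is labelled as an empty vector, so the effect of the virus itself was not tested in these libraries. In mice without a lesion, the study compared AAV9 carrying eGFP with sham. It reported no significant difference in apomorphine-induced rotation or in the inflammatory markers it measured. Bulk RNA-seq has 2 sham libraries, 1 library of 6-OHDA and 2 of 6-OHDA+NDST3, with 51003699 to 70533326 counts each. Nothing in the labels ties a library to 1 animal, so the p-values measure only the spread between these samples. The single 6-OHDA library has no replicate, and the tests take its spread from the replicated groups. The label was checked against its neurons: the 10 listed neuron markers summed to 7030 and 7857 CPM (counts scaled to the size of the library) in sham, 2701 in 6-OHDA, and 6330 and 5572 in 6-OHDA+NDST3. The 9 markers of dopaminergic neurons, the cells the lesion targets, summed to 941.3 and 905.7 CPM in sham, 165.9 in 6-OHDA, and 293 and 276.6 in 6-OHDA+NDST3, where their mean was 0.308 of that in sham.

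The 6-OHDA library had more transcript of nearly all 36 genes than sham. With edgeR's quasi-likelihood test and Benjamini-Hochberg adjusted p-values over all 19300 genes tested, 34 of 36 rose and 0 fell (35 of 36 had a raw p under 0.05, and no fold change was negative), where 18.8% of all genes tested were called higher. All 36 passed the filter on low counts. The median log2 fold change of the 36 was 2.72, against -0.002 over all genes. Summed over the 36 genes, the level was 117.1 and 103.3 CPM in the sham libraries, 427.2 in 6-OHDA, and 140.8 and 174.7 in 6-OHDA+NDST3. By the rule the study used, at least 2-fold at a raw p under 0.05, 34 members were higher (14.4% of all genes). The 6-OHDA library was the highest of the 5 for 35 of 36 members and for 38.9% of all genes tested. Without either sham library the adjusted p of the best member was 0.0516 and 0.0832, and 0 members (0 genes of the whole table) were called by edgeR, with 34 and 33 members at a raw p under 0.05. In bulk tissue, more cells in cycle and more RNA per cycling cell cannot be told apart.

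**Figure D1:**
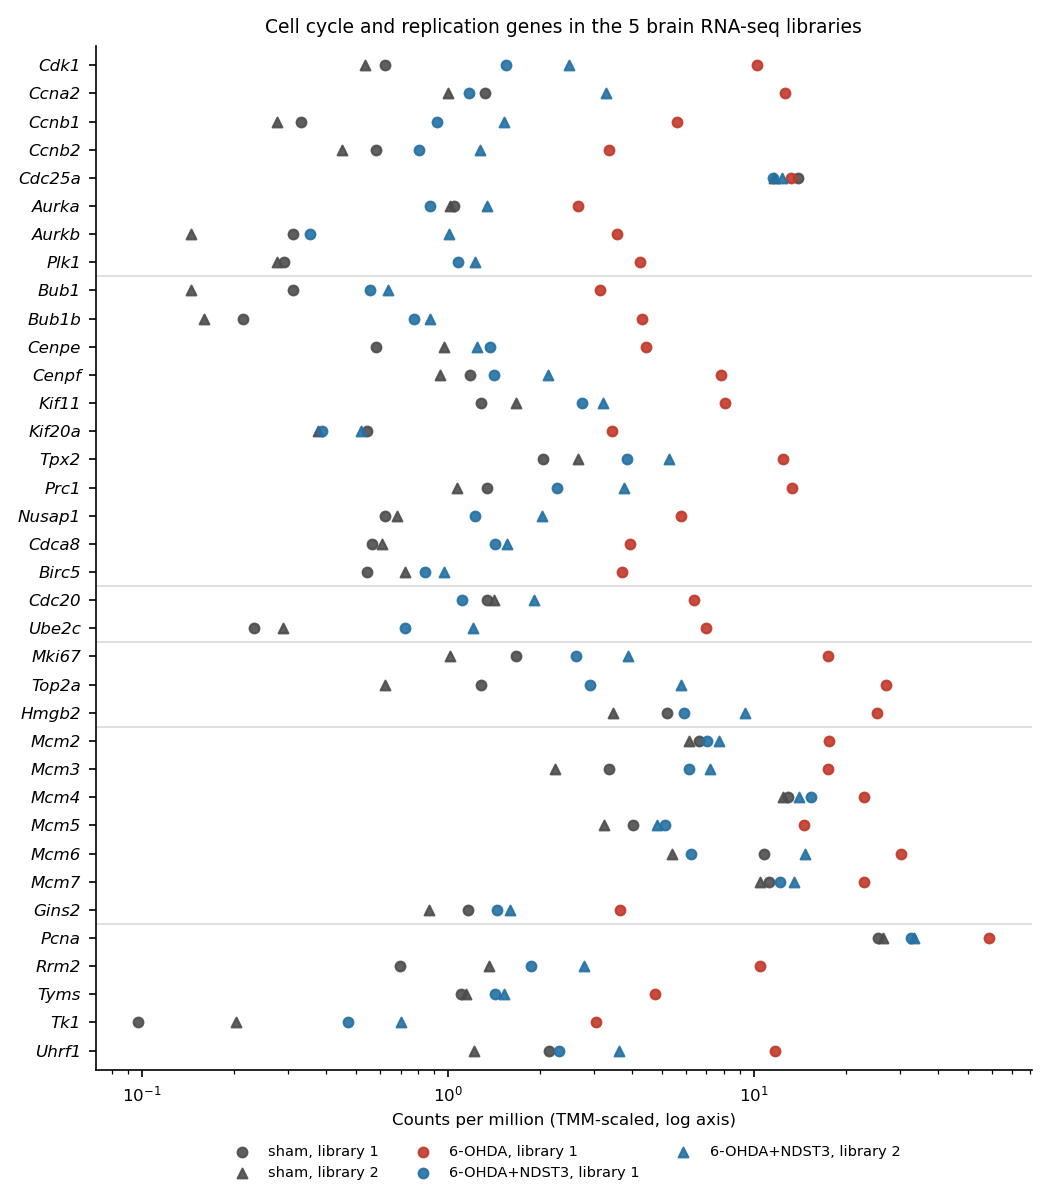
Level of each of the 36 genes in CPM, scaled by TMM factors, on a log axis. Each point is 1 library (circle, library 1; triangle, library 2; grey, sham; red, 6-OHDA; blue, 6-OHDA+NDST3), and grey lines part the roles. The red point is the rightmost for 35 genes (38.9% of all genes tested). For 30 genes both blue points lie between it and the grey ones (19.9% of all genes tested).

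Kinases and cyclins of mitotic entry gave some of the largest folds. Cdk1 (NCBI Gene 12534), the kinase that starts mitosis, had 0.621 and 0.536 CPM in sham, 10.2 in 6-OHDA, and 1.54 and 2.5 in 6-OHDA+NDST3. The 6-OHDA library stood far above the other 4, and both NDST3 libraries lay above both sham libraries. The rise in 6-OHDA was 4.14 on the log2 scale (SE 0.38, adjusted p = 0.00823, edgeR). Ccnb1, the cyclin that CDK1 needs to enter mitosis, had 0.330 and 0.275 CPM in sham and 5.62 in 6-OHDA, a rise of 4.21 (SE 0.43, adjusted p = 0.00823, edgeR), and 0.924 and 1.53 CPM with NDST3. Plk1, a kinase that helps activate CDK1 and build the spindle, had 0.291 and 0.275 CPM in sham, 4.26 in 6-OHDA, and 1.07 and 1.22 with NDST3. The 2 sham values of Plk1 nearly coincided, as did those with NDST3, and the 3 groups did not overlap.

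The other cyclins and Aurora kinases spread more between replicates. Ccna2, the cyclin of S phase and G2, had 1.32 and 0.999 CPM in sham, 12.7 in 6-OHDA, and 1.18 and 3.28 with NDST3, so that 1 NDST3 library lay among the sham values. Aurkb, the kinase of the chromosomal passenger complex, had 0.311 and 0.145 CPM in sham, 3.56 in 6-OHDA, and 0.353 and 1.00 with NDST3. The rises in 6-OHDA were 3.45 for Ccna2 (SE 0.61, adjusted p = 0.0147, edgeR) and 3.98 for Aurkb (SE 0.75, adjusted p = 0.0171, edgeR). Ccnb2, a second mitotic cyclin, rose by 2.71, and Aurka, the kinase of the spindle poles, by 1.37 with an adjusted p of 0.0487 (edgeR). Cdc25a, the phosphatase that releases CDK2 and CDK1 from inhibition, did not follow the others. It had 14.0 and 11.6 CPM in sham, 13.2 in 6-OHDA, and 11.6 and 12.4 with NDST3, so the groups overlapped. Its log2 fold change was 0.04 (SE 0.18, adjusted p = 0.868, edgeR), and it lay between -0.08 and 0.18 over the 12 alternatives run.

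All 11 genes of the spindle, the kinetochore and its checkpoint rose in 6-OHDA, by 2.40 (Tpx2) to 4.52 (Bub1b) on the log2 scale. Bub1b, which encodes the checkpoint protein BUBR1, had 11 and 11 counts in sham, 222 in 6-OHDA, and 46 and 52 with NDST3. In CPM this was 0.214 and 0.159 in sham, 4.3 in 6-OHDA, and 0.773 and 0.871 with NDST3, with no overlap between groups. Its log2 fold change was 4.52 (SE 0.38, adjusted p = 0.00823, edgeR). Kif20a, a kinesin of the spindle midzone, had 0.544 and 0.377 CPM in sham, 3.45 in 6-OHDA, and 0.386 and 0.519 with NDST3, so its sham and NDST3 values overlapped. Birc5, which encodes survivin, had 0.544 and 0.724 CPM in sham, 3.70 in 6-OHDA, and 0.840 and 0.972 with NDST3. The other 8 rose by between 2.40 (Tpx2) and 3.80 (Bub1, the partner kinase of the checkpoint). They were Cenpe and Cenpf, which act at kinetochores, Kif11 and Tpx2, which build the bipolar spindle, Prc1 and Nusap1, which bundle microtubules, and Cdca8, which encodes borealin.

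Both partners of the anaphase-promoting complex rose as well. Ube2c, its ubiquitin-conjugating enzyme, had 0.233 and 0.290 CPM in sham, 6.99 in 6-OHDA, and 0.722 and 1.21 with NDST3, and rose 26.4-fold (log2 4.72, SE 0.44, adjusted p = 0.00823, edgeR). Cdc20, its activator, had 1.34 and 1.42 CPM in sham, 6.39 in 6-OHDA, and 1.11 and 1.91 with NDST3. The 2 NDST3 values of Cdc20 enclosed the sham values. Top2a, the topoisomerase that untangles sister chromosomes, had the largest fold of the 36. It had 1.28 and 0.623 CPM in sham, 27 in 6-OHDA, and 2.91 and 5.76 with NDST3, and rose 28.7-fold (log2 4.84, SE 0.56, adjusted p = 0.00847, edgeR). Mki67, the proliferation marker Ki-67, had 1.67 and 1.01 CPM in sham, 17.4 in 6-OHDA, and 2.62 and 3.89 with NDST3. Hmgb2, a chromatin protein that resting cells also make, had 5.18 and 3.48 CPM in sham, 25.2 in 6-OHDA, and 5.91 and 9.38 with NDST3.

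The replicative helicase changed by smaller folds from a higher level. Per length, the mean of the 2 sham libraries was 2.25 to 10.3 TPM (transcripts scaled for length and depth) for the 6 MCM genes and 2.38 TPM for Gins2, and 0.12 to 1.88 TPM for the 13 members of the spindle and anaphase-promoting groups. Pcna was the most abundant at 50.3 TPM. Mcm3 had 3.36 and 2.24 CPM in sham, 17.4 in 6-OHDA, and 6.13 and 7.2 with NDST3, with no overlap between groups and the largest rise of the helicase genes (log2 2.64, SE 0.29, adjusted p = 0.00823, edgeR). Mcm4 had 12.9 and 12.5 CPM in sham, 22.9 in 6-OHDA, and 15.4 and 14.1 with NDST3. Its rise of 0.85 was the smallest of those called (SE 0.14, adjusted p = 0.0131, edgeR). Mcm2, Mcm5 and Mcm7 rose by 1.47, 2.01 and 1.07, and Gins2, a subunit of the GINS complex that activates the helicase, rose by 1.84. Mcm6 had 10.8 and 5.39 CPM in sham, 30.2 in 6-OHDA, and 6.21 and 14.7 with NDST3. The sham and NDST3 values overlapped, and Mcm6 did not pass the test (log2 1.90, SE 0.60, adjusted p = 0.0643, edgeR).

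Genes of the clamp, nucleotide supply and maintenance methylation all rose in 6-OHDA. Pcna, the sliding clamp, had 25.6 and 26.4 CPM in sham, 58.9 in 6-OHDA, and 32.8 and 33.5 with NDST3. Its replicates lay close together, and its rise of 1.18 had a standard error of 0.11 (adjusted p = 0.00823, edgeR). Tk1, the thymidine kinase of dividing cells, had only 5 and 14 counts in sham, 157 in 6-OHDA, and 28 and 42 with NDST3. Its rise was 4.29 (SE 0.54, adjusted p = 0.00876, edgeR). Rrm2, the cell cycle regulated subunit of ribonucleotide reductase, had 0.699 and 1.36 CPM in sham, 10.4 in 6-OHDA, and 1.86 and 2.78 with NDST3. Tyms, thymidylate synthase, rose by 2.07, and Uhrf1, which guides DNA methylation to newly copied DNA, by 2.81.

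With NDST3 the same list was lower than in the 6-OHDA library. By edgeR's test with Benjamini-Hochberg adjustment, 29 of 36 members fell in 6-OHDA+NDST3 and 0 rose (34 of 36 had a raw p under 0.05, and no difference was positive), where 6.59% of all genes tested were called lower. By the fold and raw p rule 31 of 36 were lower, against 8.37% of all genes. The median log2 difference of the members was -1.86, against 0.003 over all genes. This comparison and the one with sham share the single 6-OHDA library, so a high value there makes a rise in the one and a fall in the other. All 11 genes of spindle and checkpoint fell, as did both partners of the anaphase-promoting complex, all 3 chromosome-associated genes, and all 5 of clamp, nucleotide supply and methylation. Of the helicase genes 5 of 7 fell, and of the mitotic entry genes only Cdk1, Ccnb1 and Plk1 of 8.

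The difference was largest for Kif20a, at -2.92 on the log2 scale (SE 0.41, adjusted p = 0.0331, edgeR), followed by Ube2c at -2.85 (SE 0.41, adjusted p = 0.0333, edgeR). Top2a had a difference of -2.64 (SE 0.52, adjusted p = 0.0408, edgeR), and Mki67 one of -2.42 (SE 0.38, adjusted p = 0.0344, edgeR). Among the replication genes the fall varied: Tk1 was at 0.194 of its 6-OHDA level, Rrm2 at 0.223 and Uhrf1 at 0.252, close to Cdk1 at 0.198, while Pcna was at 0.562 (log2 -0.83, SE 0.11, adjusted p = 0.032, edgeR), Mcm4 at 0.642 and Mcm7 at 0.562. The 7 members that did not pass were Ccna2 (-2.50, adjusted p = 0.0519), Ccnb2 (-1.69, 0.0551), Aurka (-1.27, 0.0834), Aurkb (-2.39, 0.077), Gins2 (-1.26, 0.0648), Mcm6 (-1.53, 0.135) and Cdc25a (-0.14, 0.62), all by edgeR. Only for Cdc25a was the difference close to 0. When either sham library or the first NDST3 library was left out, edgeR called 0 of the 36, with 33 at a raw p under 0.05 in each of these fits, and without the second NDST3 library it called 23.

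**Figure D2:**
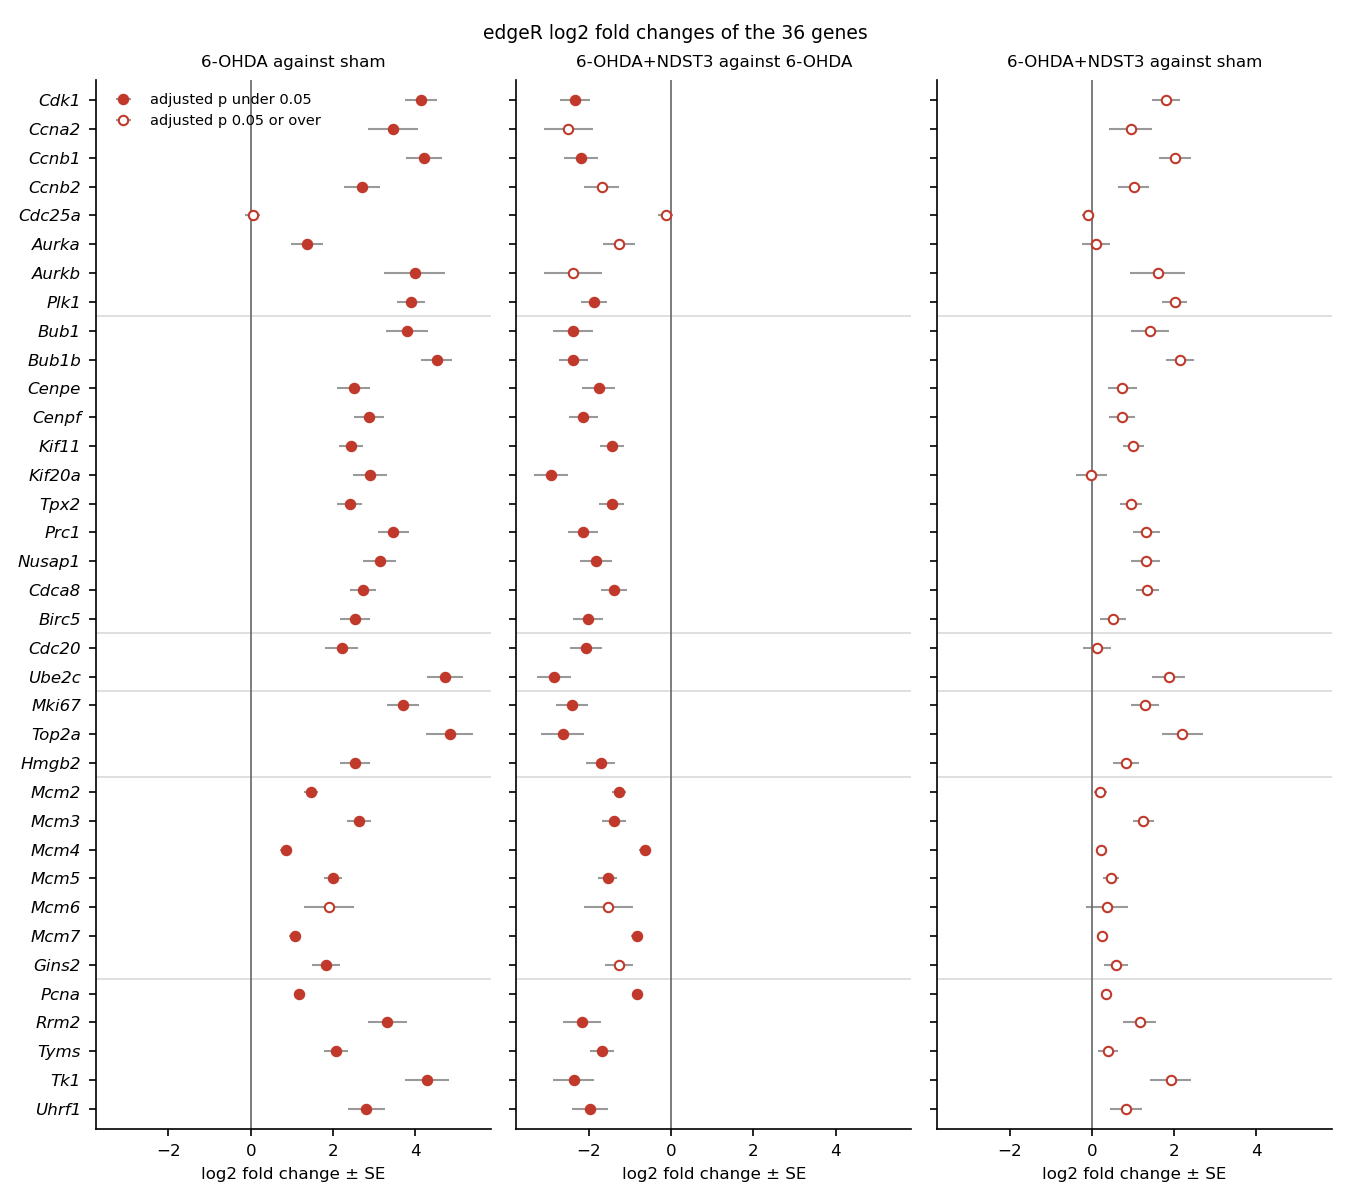
Log2 fold change of each gene in the 3 comparisons (edgeR, bars ± SE, all 5 libraries in 1 fit). Filled points have an adjusted p under 0.05, which holds for 34 genes in 6-OHDA against sham, for 29 in 6-OHDA+NDST3 against 6-OHDA and for 0 in 6-OHDA+NDST3 against sham.

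Against sham, the NDST3 libraries kept a higher level of most members, but edgeR called 0 of them by adjusted p, as it called 0.0% of all genes tested. At a raw p under 0.05 there were 19 of 36. The lowest adjusted p was 0.152, for Plk1 and Bub1b. DESeq2 called 9 members higher by adjusted p, and 845 of all 20328 genes in its fit. Limma called 0 members on log2(FPKM + 1) and 0 on log2(FPKM + 0.1). By the fold and raw p rule 16 of 36 were higher, against 4.78% of all genes, and 9 without the second NDST3 library. The median log2 difference was 0.95, and 34 of 36 members had a positive one. Both NDST3 libraries lay above both sham libraries for 30 of 36 members and for 26.5% of all genes tested.

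Members differed in how far they stayed above sham. Top2a had a difference of 2.20 (SE 0.49), Bub1b of 2.14 (SE 0.35), Ccnb1 of 2.02 (SE 0.39), Plk1 of 2.01 (SE 0.30) and Tk1 of 1.92 (SE 0.50). The replication genes Mcm2, Mcm4 and Mcm7 had differences of 0.21, 0.21 and 0.24 (SE 0.15, 0.12 and 0.13). Kif20a was at -0.01 (SE 0.38), Cdc20 at 0.13 (SE 0.34) and Aurka at 0.10 (SE 0.34). The 2 NDST3 libraries were themselves unequal: the second was above the first for 33 of 36 members and for 50.7% of all genes tested. The exceptions were Cenpe, Mcm4 and Mcm5. The second exceeded the first 1.24-fold in the summed level of the members, 1.66-fold for the chromosome-associated genes and 1.08-fold for the group of clamp and nucleotide supply.

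Genes of the same processes outside the 36, on lists made by function, were called in smaller shares. In 6-OHDA against sham, edgeR called 6 of 8 G1 cyclins and kinases higher and 1 lower (median log2 1.45), where 18.8% of all genes tested were called higher. Cdk2, the kinase of S phase entry, rose by 2.12 (SE 0.30, adjusted p = 0.00996, edgeR), while its partner cyclin Ccne1 fell by 1.41 (SE 0.29, adjusted p = 0.0217, edgeR). Of cell cycle inhibitors and pocket proteins 5 of 9 rose and 1 fell (median 1.23). Cdkn2b, an inhibitor of CDK4 and CDK6, rose by 3.56, and its relative Cdkn2d fell by 0.64. Of 12 cell cycle transcription factors 5 rose (median 0.84), with E2f8, a repressor among the E2F factors, rising by 2.49.

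In the lists of other replication machinery fewer genes were called. Of 15 genes of origin licensing and firing 5 rose (median log2 0.30), among them Dbf4, the activator of the CDC7 kinase, by 1.75. Of 19 polymerase, clamp loader and ligase genes 4 rose (median 0.36), with Pole2, a subunit of polymerase epsilon, rising by 2.41. These 4 of 19 are close to the 18.8% called higher over all genes. In the mitotic lists, 8 of 12 kinetochore and checkpoint genes rose (median 1.80), 7 of 10 spindle motors and cytokinesis genes (median 2.54) and 5 of 9 condensin and cohesion genes (median 1.23). Cenpa, the histone of centromeres, rose by 4.0, the kinesin Kif2c by 4.24, and Espl1, the separase, by 2.84.

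Of 8 mitotic kinases and phosphatases other than the members, 3 were called higher and 1 lower. Their median log2 fold change was 1.53, and 7 of 8 were positive. Pbk, a mitotic kinase, had 0.544 and 0.377 CPM in sham, 8.38 in 6-OHDA, and 0.823 and 1.56 with NDST3. It rose by 4.19 in 6-OHDA (SE 0.49, adjusted p = 0.00847, edgeR) and fell by 2.81 with NDST3 (adjusted p = 0.035, edgeR). Wee1, which holds CDK1 inactive, went the other way: 22 and 26.8 CPM in sham, 12.6 in 6-OHDA, and 26.3 and 21.9 with NDST3. Its log2 fold change was -0.95 in 6-OHDA (adjusted p = 0.0245, edgeR) and 0.93 with NDST3 against 6-OHDA (adjusted p = 0.0467, edgeR). Of 9 p53 target genes 3 rose and 1 fell (median 0.27). With NDST3 against 6-OHDA, the number called lower was 6 of the 8 G1 genes, 3 of each of the 3 mitotic lists of kinetochore, condensin and spindle genes, and 1 each of the origin (15 genes), polymerase (19) and transcription factor (12) lists. The last 3 shares are close to the 6.59% called lower over all genes.

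Markers of cell types that can divide or enter the tissue moved with the members, as the plot of summed marker levels shows. The 10 microglia markers listed (of 11) summed to 525.2 and 392.7 CPM in sham, 2981 in 6-OHDA, and 1078 and 1740 with NDST3. In 6-OHDA 9 of these 10 were called higher. The 8 markers of monocytes or macrophages, of which 4 were called higher, summed to 204.6 and 44.87, 2892, and 639.4 and 1094 CPM. Most of this sum was Lyz2, the lysozyme of myeloid cells, and the other 7 genes summed to 37.0 and 21.2, 87.7, and 19.9 and 34.9 CPM, 3.01-fold above the sham mean in 6-OHDA and at 0.941 of it with NDST3. The 4 neutrophil markers listed of 7 (3 called higher) summed to 14.2 and 10.8, 107.8, and 37.8 and 67.2 CPM. Of these sums Csf3r, the receptor of G-CSF, made the larger part, and the other 3 genes summed to 3.57 and 3.84, 8.52, and 4.12 and 5.14 CPM. All 7 oligodendrocyte precursor markers were called higher, with 600.6 and 514.6, 1124, and 651.8 and 713 CPM in sum. The 9 mural or fibroblast markers, 7 of them called higher, had 540.9 and 354.2, 1656, and 272.7 and 361 CPM. Astrocyte markers (5 of 8 called higher) and markers of neural progenitors (5 of 8) were 2.44-fold and 2.51-fold above the sham mean in sum, and endothelial markers (5 of 8) 1.46-fold. Without the most abundant gene of each (Gfap, Sox2 and Flt1), these sums were 1.38-fold, 2.76-fold and 1.74-fold above it. The rise in the astrocyte sum thus rested largely on Gfap.

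The 36 members, in sum, were 3.88-fold above the sham mean in 6-OHDA and 1.43-fold with NDST3, where microglia markers were 6.50-fold and 3.07-fold above it. For mural or fibroblast markers these values were 3.70 and 0.708, and for oligodendrocyte precursor markers 2.02 and 1.22. A sum weighs abundant genes most: by role, the members' sum in 6-OHDA ran from 2.84-fold (helicase genes) to 10.5-fold (chromosome-associated genes). The second NDST3 library exceeded the first 1.61-fold in microglia markers and 1.71-fold in monocyte or macrophage markers, in the direction in which 33 members differed. The listed T cell markers (5 of 9) summed to 4.55 to 8.19 CPM over all 5 libraries. Those of NK or innate lymphoid cells (6 of 8) summed to 66.9 and 66.4, 33.4, and 67.1 and 41.7 CPM, mostly Kit and Gata3, and edgeR called Klrk1, Il7r and Il1rl1 higher and Gata3 lower in 6-OHDA. Those of B cells (5 of 8) summed to 52.96 and 49.7, 31.1, and 43.8 and 31.7 CPM, with Ighm higher and Pax5 and Ebf1 lower. A gene is in the bulk table only if it had a count in each library, and Cd3d, Cd3e, Cd3g, Icos, Ncr1, Klrb1c, Cd79b and Ms4a1 are among those not listed. The part of these cell types in the members' change was not tested.

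**Figure D3:**
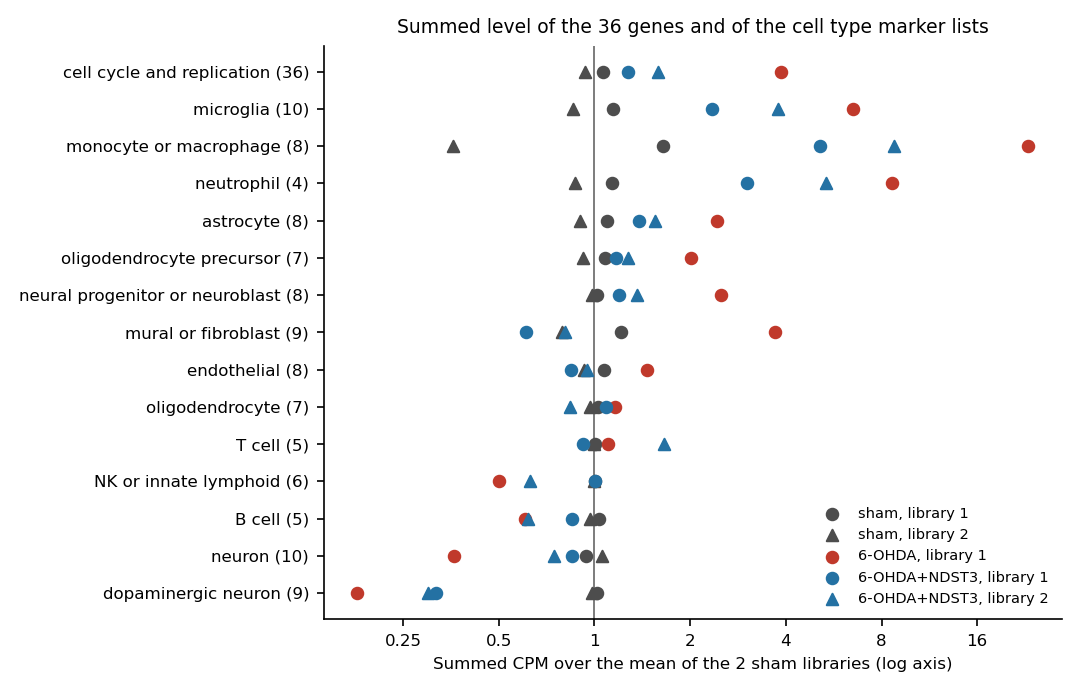
Summed CPM of the 36 genes and of each list of cell type markers, divided by the mean of the 2 sham libraries, on a log axis. Points are libraries as before, and the number of genes listed stands in brackets. In the 6-OHDA library the members are 3.88-fold above the sham mean, between oligodendrocyte precursor markers at 2.02-fold and microglia markers at 6.50-fold, while neuron markers are at 0.363 of it. The members' place depends on their abundant genes, as sums by role ran from 2.84-fold to 10.5-fold.

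Promoters of a few members are printed because these genes moved together in bulk RNA. RefSeq promoters (250 bases before to 50 after the start, GRCm38.p6) were found for 30 of the 36 genes. Those not found were Ccna2, Aurkb, Kif20a, Tpx2, Mcm4 and Gins2. Both strands were searched for TTTGAA (the core of the CHR element), for CCAAT (the box bound by NF-Y), and for the E2F-type words TTTGGCGC, TTTCGCGC, TTTCCCGC and TTCCCGCC, counted together. The last pair of words can overlap by 7 bases, and matches on opposite strands can overlap as well, as CCAAT and ATTGG do once in Ube2c. A gene counted as holding a motif if any of its promoters did.

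TTTGAA was found in 14 of 20 mitotic and chromosome genes, in 1 of 10 replication genes (Mcm2), and in 20.2% of the 27025 genes with a promoter. The E2F-type words went the other way, with 5 of 10 replication genes (Mcm3, Mcm5, Mcm6, Mcm7 and Uhrf1), 2 of 20 mitotic and chromosome genes (Cdk1 and Cdc25a), and 4.0% of all genes. CCAAT was common to both, in 26 of 30 members against 41.1% of all genes. Bub1b and Pcna are shown because a chromatin region reaches into their promoter. Ube2c and Top2a are shown for their folds and Mcm3 for its E2F-type words, and these 3 were chosen after their values were seen. Capitals mark matches of the 3 motifs or of their reverse complements, and the sequences run 5′ to 3′ along the gene. On the opposite strand TTTGAA reads as TTCAAA. The CCAAT box then reads as ATTGG. Bub1b lies at chr2:118597961-118598260 (plus strand), Pcna at chr2:132253131-132253430 (minus), Ube2c at chr2:164769679-164769978 (plus), Top2a at chr11:99024140-99024439 (minus) and Mcm3 at chr1:20820263-20820562 (minus).
Top2a: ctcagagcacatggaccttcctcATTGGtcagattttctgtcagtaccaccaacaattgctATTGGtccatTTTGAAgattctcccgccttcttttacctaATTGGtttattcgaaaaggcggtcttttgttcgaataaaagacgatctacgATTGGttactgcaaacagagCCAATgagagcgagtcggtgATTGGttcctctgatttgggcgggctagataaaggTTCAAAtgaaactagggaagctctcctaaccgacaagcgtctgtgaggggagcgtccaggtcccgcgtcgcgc
Ube2c: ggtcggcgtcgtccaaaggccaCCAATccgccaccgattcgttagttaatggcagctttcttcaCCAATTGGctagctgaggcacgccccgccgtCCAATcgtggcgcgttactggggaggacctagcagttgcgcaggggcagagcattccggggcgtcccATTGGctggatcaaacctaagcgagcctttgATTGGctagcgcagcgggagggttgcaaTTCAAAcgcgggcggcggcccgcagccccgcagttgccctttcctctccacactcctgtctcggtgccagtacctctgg
Bub1b: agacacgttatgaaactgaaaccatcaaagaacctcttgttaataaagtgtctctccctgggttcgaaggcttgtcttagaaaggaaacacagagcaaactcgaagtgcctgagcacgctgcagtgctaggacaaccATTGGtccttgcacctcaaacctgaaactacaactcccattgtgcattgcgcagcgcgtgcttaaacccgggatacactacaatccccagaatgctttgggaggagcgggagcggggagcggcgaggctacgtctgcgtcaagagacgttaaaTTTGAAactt
Mcm3: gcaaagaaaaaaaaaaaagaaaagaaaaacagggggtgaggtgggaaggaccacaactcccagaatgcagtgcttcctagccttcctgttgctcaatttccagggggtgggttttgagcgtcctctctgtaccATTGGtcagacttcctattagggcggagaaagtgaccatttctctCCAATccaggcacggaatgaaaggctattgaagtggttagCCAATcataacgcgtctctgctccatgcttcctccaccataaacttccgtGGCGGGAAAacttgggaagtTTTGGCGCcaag
Pcna: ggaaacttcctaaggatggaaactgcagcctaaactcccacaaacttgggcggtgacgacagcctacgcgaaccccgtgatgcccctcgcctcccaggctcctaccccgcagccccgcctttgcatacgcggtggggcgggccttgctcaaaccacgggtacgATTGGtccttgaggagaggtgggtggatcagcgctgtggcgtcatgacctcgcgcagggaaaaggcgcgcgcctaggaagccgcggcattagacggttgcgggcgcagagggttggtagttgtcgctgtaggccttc
Top2a and Ube2c, the 2 members of the largest folds, each held 6 CCAAT boxes on 1 strand or the other, with 2 and 1 matches of TTTGAA. Mcm3 held 3 matches of the E2F-type words, of which 2 overlap, and no TTTGAA. In Pcna the only match was 1 CCAAT box. Cdc25a, which passed the test in no comparison, held 1 E2F-type word, 2 CCAAT boxes and no TTTGAA. No match was found in the promoters of Nusap1, Birc5, Tyms and Tk1, which all rose in 6-OHDA. A match describes these letters only and says nothing of binding.

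In single cells, most members had low means in every cluster. The table gives 1 mean per gene for 9 clusters in 6-OHDA and in 6-OHDA+NDST3, on what the values show to be a natural-log scale, averaged over cells. Each group is 1 library and the deposited table holds no number of cells, so no test or interval is given. The sham library was not analysed here. Of 324 pairs of member and cluster, 39 had a mean above 0.1 in either group. Hmgb2 and Pcna were above 0.1 in all 9 clusters, Mcm6 in 6, Mcm4 and Mcm3 in 4 each, and Mcm7, Top2a, Mcm5 and Mki67 in 1 to 3. The other 27 members were at or below 0.1 everywhere. These included Cdk1 and all cyclins, Bub1b and Ube2c, whose bulk folds were among the largest.

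Cluster 4, in which all 9 listed T cell markers were highest, had the highest mean over the 36 genes. Top2a was at 0.248 in 6-OHDA and 0.206 with NDST3 there, Mcm6 at 0.404 and 0.429, and Hmgb2 at 1.23 and 1.10. Cluster 8, highest for 6 of 8 markers of NK or innate lymphoid cells, had 0.107 and 0.145 for Top2a and 0.195 and 0.279 for Mcm6. Cluster 9, highest for all 8 B cell markers, had 0.114 and 0.097 for Top2a. In cluster 6, highest for 8 of 11 microglia markers, Top2a was at 0.018 and 0.023 and Mki67 at 0.017 and 0.017. Cluster 3, which leads in Apoe and Spp1 and held all 11 microglia markers above 0.1, had the highest Mki67, at 0.099 and 0.110. Cluster 2, highest for 7 of 8 astrocyte markers and for 6 of 7 oligodendrocyte precursor markers (2 of which were above 0.1), had the highest Cenpf, at 0.054 and 0.097. The highest cluster of Pcna was number 7, at 0.393 and 0.407, where all 8 endothelial markers were highest.

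In every cluster some members had a higher mean with NDST3 and others a lower one. The mean over the 36 members was higher with NDST3 in all 9 clusters, in 8 of 9 by the sum of back-transformed means and in 6 of 9 without Hmgb2, but the differences were small. In cluster 4 it was 0.0871 without and 0.0906 with NDST3. Cluster 8 had 0.0614 and 0.0743, and cluster 3 had 0.0457 and 0.0492. Over all genes the mean was also higher with NDST3, except in clusters 5 and 9. This all-gene mean was 0.1163 and 0.1174 in cluster 4, and 0.1099 and 0.1124 in cluster 8. In cluster 5 it was 0.122 and 0.1212, and in cluster 9 it was 0.1142 and 0.1112. In cluster 8, 31 of 36 members had a higher mean with NDST3, where 60.6% of all genes detected in either group did. In cluster 4 this held for 26 members (all genes 61.4%), and in the other 7 clusters for 12 to 21 members (48.9% to 60.1%). More members were lower than higher in cluster 1 (16 against 15), cluster 2 (20 against 12) and cluster 6 (20 against 16). In cluster 9, 13 members had a mean of 0 in 6-OHDA and 0 with NDST3, and in cluster 4 these numbers were 9 and 0. Cluster 2 had 4 such members without NDST3 and 8 with it, and cluster 5 had 6 and 10.

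**Figure D4:**
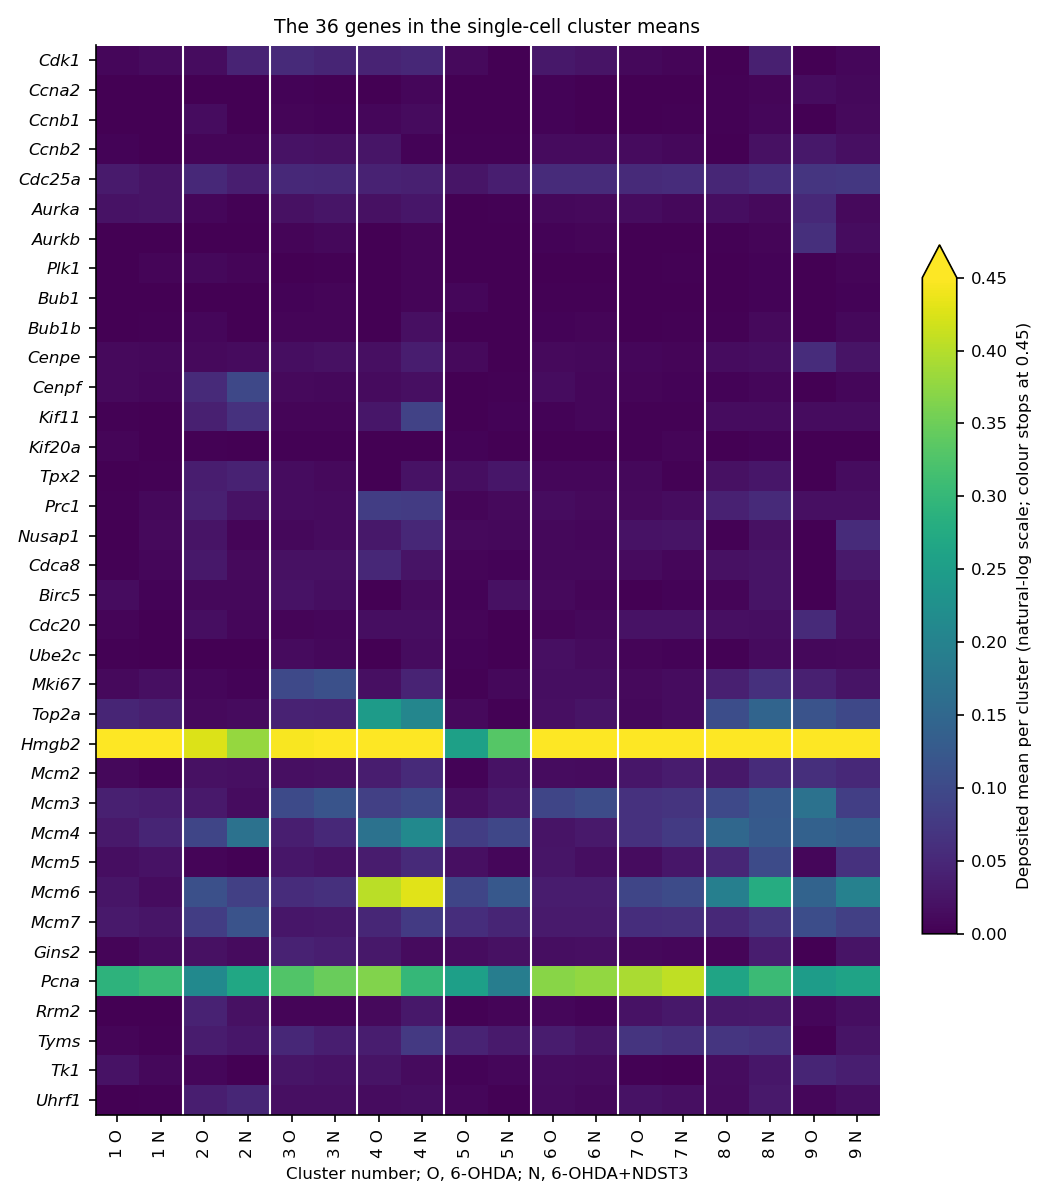
Deposited mean of each of the 36 genes in the 9 single-cell clusters, on a natural-log scale, with 6-OHDA (O) and 6-OHDA+NDST3 (N) side by side. The colour stops at 0.45, which Hmgb2 passes in most clusters. Top2a and Mcm6 are brightest in cluster 4 and Pcna is even over all clusters, while most mitotic genes are near 0 throughout.

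Acetylation of H3K27, a mark of active promoters and enhancers, was read by CUT&RUN, and open chromatin by ATAC-seq. Each value is a tag signal in the authors' units, from 2 pooled libraries a group for H3K27ac and 1 library for ATAC-seq, so differences are given without a test. Both tables hold only regions within 1000 bases of a start. The H3K27ac table holds no region with a lower signal in 6-OHDA+NDST3 than in 6-OHDA (0 of 11424, with 96.3% higher), so a rise with NDST3 at a member is a property of the table. The region positions do not match GRCm38, the build that the labels name: 302 of 11181 implied starts lay within 100 bases of a gene end of that build, and 4 regions are on scaffolds named only in GRCm39. Positions are therefore given as distance from the start, as deposited.

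At 9 of the 11 member regions H3K27ac was lower in 6-OHDA than in sham, while 41.4% of all regions were lower. The median ratio of (signal + 1) was 0.805 over the 11 and 1.09 over all. Pcna had the lowest ratios. Its region centred 48 bases before the start had a signal of 18.1 in sham, 5.95 in 6-OHDA and 13.4 with NDST3, and that centred 259 bases before it had 17.6, 9.70 and 17.3. So the signal at Pcna was lower in 6-OHDA than in sham, while its transcript was higher. No region of this table is higher in 6-OHDA than with NDST3, so the side with NDST3 is not a result. A region higher in 6-OHDA than with NDST3, as most of the members' transcripts were, is thus missing from it. The comparison of 6-OHDA with sham covers only the regions kept. The count of lower member regions and the contrast with the Pcna transcript are limited in the same way. Birc5, with regions 766 and 594 bases before its start, had 22.1 and 18.1 in sham, 12.9 and 14.4 in 6-OHDA, and 20.4 and 21.4 with NDST3. Tpx2 had 16.6, 10.7 and 19.9 in sham, 6-OHDA and 6-OHDA+NDST3. For Kif11 the region 667 bases before the start had 18.6, 12.9 and 28.4, and that 551 bases before it had 23.1, 20.4 and 25.9.

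The regions of higher signal in 6-OHDA were those of Cenpe, with 31.2 in sham, 42.2 in 6-OHDA and 43.6 with NDST3, and the outer one of Kif20a, with 10.8, 14.9 and 20.9. The inner region of Kif20a, centred 140 bases before the start, had 13.2, 11.7 and 14.5. The region of Mcm5, at 39.2, 35.3 and 54.6, was the strongest of the members in sham and with NDST3, and that of Cenpe in 6-OHDA. With NDST3 against sham, 8 of 11 member regions were higher, where 80.4% of all regions were. In ATAC-seq all 4 member regions were higher in 6-OHDA than in sham, as were 57.7% of all regions. Bub1b had 11, 23.2 and 37.2 in sham, 6-OHDA and 6-OHDA+NDST3, Cenpe had 9.03, 16.5 and 11.3, Uhrf1 had 236.6, 272.2 and 334.6, and Mcm5 had 22.6, 24.5 and 23.0. At Bub1b the signal was thus higher with NDST3 than without, while its transcript was lower.

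**Figure D5:**
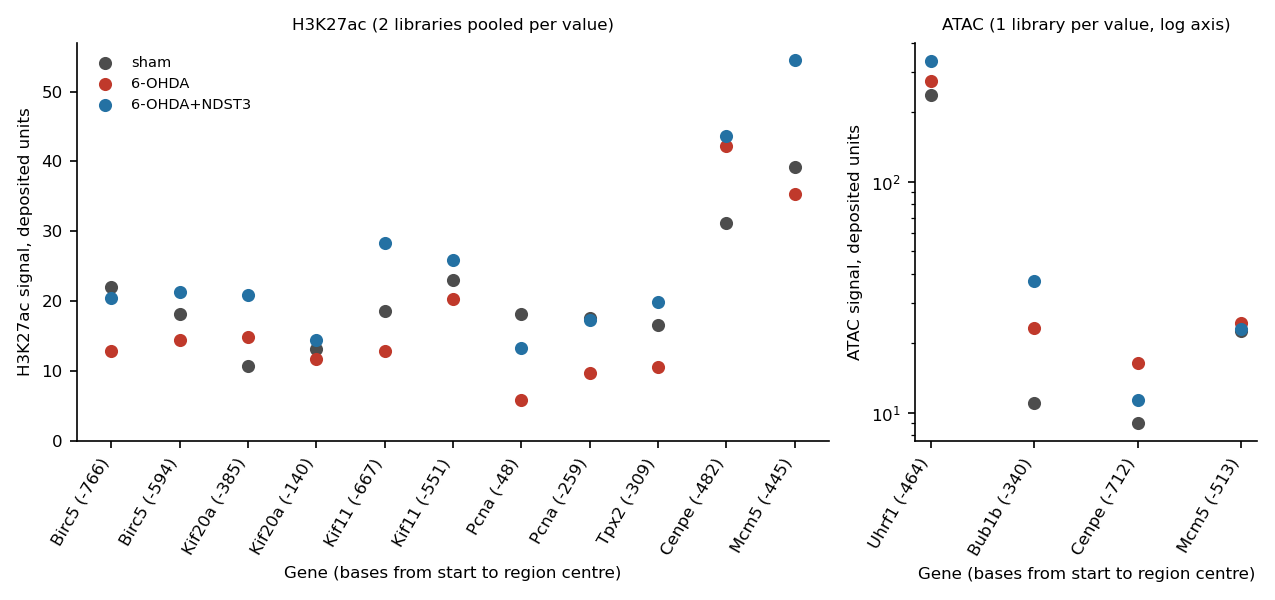
Deposited signal at the 11 H3K27ac regions (left, linear axis from 0) and the 4 ATAC-seq regions (right, log axis) of the members, 1 point per group. Labels give the gene and the distance of the region's centre from the start in bases. The red point of 6-OHDA lies below the grey one at 9 H3K27ac regions and at no ATAC-seq region. At H3K27ac regions it cannot lie above the blue one, since the table holds no such region.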

How the data were processed

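Bulk RNA-seq, scRNA-seq, H3K27ac CUT&RUN and ATAC-seq tables of mouse brain were analysed. The authors used Trimmomatic, HISAT2 (mm10) and StringTie, and deposited read counts, FPKM and TPM per gene. The kit was stranded, and the counting by strand is not given in the sources used here. The scRNA-seq means per cluster were deposited on a natural log scale, after Cell Ranger and Seurat. Cells with very many detected genes had been removed to limit multiplets, per the study's methods, and no doublet caller could be run on means. The signal per CUT&RUN and ATAC-seq region was deposited by the authors, and its normalization is not given in the sources used here. All columns were matched to samples by name (0 left over).

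Tests on counts used edgeR 4.0.16 (R 4.3.3): TMM factors, the default filter (19300 of 20328 genes kept), 1 mean per group, 2 residual degrees of freedom, the quasi-likelihood test and Benjamini-Hochberg adjustment at 0.05. SE is the absolute log2 fold change over the square root of the F statistic. The fit was tested on simulated data. Alternatives were DESeq2 1.42.0, limma 3.58.1 with log2(FPKM + 1) or log2(FPKM + 0.1), other factors and filters, only the groups compared, a replicate block, and each replicate left out. Python 3.11.15 served the other tables, with a pseudocount of 1 for signal and a threshold of 0.1 for scRNA-seq means, where 4 rows of repeated names were left out.

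The 36 members and all lists were chosen with earlier results of these data known. All members are named where listed. Of each list of related genes, the largest rise and fall among called genes of a mean of at least 1 CPM could be named, and of promoters those that a region reaches, none on chromosome 18. Results for 1 list of related genes are not reported here. Markers stand beside the result they move with. Marker sums without their most abundant gene were added after seeing the data. The total count limits the precision of low genes, such as those with under 20 counts in a sham library.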

Additional observations from a re-analysis of the deposited data

How the results depend on the processing

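Of the alternatives run for each member and comparison (12, or 11 for Bub1 and Tk1, which a filter at a mean of 1 CPM removed), 339 fold changes of 6-OHDA against sham kept direction and side of the threshold, 86 lost and 4 gained the call. Against the 6-OHDA library, with NDST3 these were 251, 169 and 10, and against sham 414, 0 and 9. The count of members higher in 6-OHDA (34) ranged from 0 to 35 with 1 library left out, and that of members lower with NDST3 (29) from 0 to 23. Without either sham library edgeR called 0 genes of the whole table in these comparisons, and 1 residual degree of freedom was left. With only the 2 groups compared, edgeR called 0 members lower with NDST3 (33 at a raw p under 0.05).

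With a replicate block 19 members were higher in 6-OHDA and 0 were lower with NDST3 (31 at a raw p under 0.05, edgeR). Over all 19300 genes of that fit these numbers were 1008 and 0 by adjusted p. The deviations of sham 1 and NDST3 1 correlated at -0.432 over genes. With only 2 pairs this cannot settle whether libraries of the same number share anything more. DESeq2 called 9 members (845 of 20328 genes) higher with NDST3 than in sham, and the fold and raw p rule 16 (4.78% of all genes). By that rule, applied after seeing the data to the other settings, the members called with 1 library left out were 32 to 34, 30 to 32 and 9 to 21 in the 3 comparisons. With limma on log2(FPKM + 1) it gave 16 lower with NDST3 and 0 higher than sham.

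With 1 library left out, direction turned for Cdc25a in 6-OHDA against sham (-0.0827 without sham 2, highest 0.1804). With NDST3 against sham it turned for 5 members, whose log2 differences ranged from -0.2196 to 0.0443 for Cdc25a, -0.26 to 0.3771 for Aurka, -0.2641 to 0.2636 for Kif20a, -0.3371 to 0.4667 for Cdc20 and -0.404 to 0.9547 for Mcm6. None of these members was called in that comparison by edgeR.

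A threshold of 0.05 gave 78 pairs of member and cluster, and 0.2 gave 22. The summed H3K27ac signal with NDST3 over sham turned from 0.28 to -0.11 on the log2 scale when only regions reaching into the promoter were kept. Other changes of the pseudocount or of the regions left the direction of the chromatin ratios as it was. The cause of these changes was not tested.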
